A study of Mus musculus with 12 samples.

Results

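Dendritic cells capture antigen in tissues, carry it to lymph nodes and present it to T cells. The 10 genes described here are markers of these cells, taken as a list of names from 46095 genes in the count table and not by their measured values: Flt3, Zbtb46, Itgax, Xcr1, Clec9a, Batf3, Irf8, Cd209a, Siglech and Ccr7. They were measured by RNA sequencing of whole pancreas at postnatal day 56, with 6 libraries of the C57BL/6J wild type (WT 1 to 6) and 6 of the Axl-/-Mertk-/- genotype (AMKO 1 to 6). The missing receptor kinases, AXL and MERTK, let phagocytes engulf dying cells and dampen innate immune signalling. Every mouse had received 10 hourly intraperitoneal doses of caerulein at 100 µg/kg and was killed 12 h after the first dose. Caerulein mimics cholecystokinin, and at such doses it injures acinar cells and sets off acute pancreatitis. No untreated pancreas was analysed here, and the sources used here do not name the strain behind the AMKO genotype, so strain background and receptor loss cannot be told apart. The labels do not say that each library came from its own mouse, so p-values measure the spread between these libraries.

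Conventional dendritic cells arise from bone marrow precursors that depend on the cytokine FLT3 ligand and its receptor FLT3. They fall into a type 1 lineage (cDC1), which takes up dead cells and cross-presents their antigens to CD8 T cells, and a type 2 lineage (cDC2), which mainly primes CD4 T cells. Plasmacytoid dendritic cells are a separate interferon-producing type, and maturing dendritic cells switch on CCR7 to reach lymph nodes. Several markers are shared with other cells. Irf8 and Ccr7 are also expressed by B cells, Itgax by macrophages and Zbtb46 by endothelium.

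Library totals ran from 10668637 to 15184371 counts. Axl was lower in AMKO, at 58.9 ± 12.3 CPM in WT and 9.09 ± 2.20 CPM in AMKO (read counts scaled to a common library size, SD, n = 6 each), and every AMKO library (66 to 187 counts) was below every WT library (545 to 1086 counts). Mertk stood at 6.90 ± 2.96 CPM in WT and 6.75 ± 2.39 CPM in AMKO. The counts are given per gene and not per exon, and the counting rule is not stated, so they were not used to check the Mertk disruption. The cause of the similar Mertk levels was not tested. The libraries differed widely in leukocyte RNA, since Ptprc, the pan-leukocyte gene that encodes CD45, ran from 12.4 to 73.7 CPM in WT and from 15.1 to 121 CPM in AMKO. Alb, the liver's main plasma protein gene, had 2 to 7 counts in WT 1 to 3 and 141 to 309 in the other 9 libraries.

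No dendritic cell marker passed the test between genotypes over all 12 libraries. Zbtb46, with 211 to 498 counts in a library, and Irf8, with 53 to 417, had the most counts, and several others had few. Of the 10 markers, 6 had enough counts to be tested (Flt3, Zbtb46, Itgax, Cd209a, Irf8 and Ccr7), and 4 fell below the count filter (Xcr1, Clec9a, Batf3 and Siglech). Of the 6, 0 were called changed by edgeR's quasi-likelihood test at an adjusted p under 0.05 (Benjamini-Hochberg over all genes tested), where 5.78% of the 13743 tested genes were called, and 0 of the 6 had an unadjusted p under 0.05. DESeq2, which called 9.67% of the genes it gave an adjusted p, and limma voom, which called 12.1%, also called 0 of the 6. Of the 6 fold changes, 5 were above 0 and 1 below, with a median of 0.34 on the log2 scale, against -0.00205 over all genes tested. The 95% intervals were wide: in the direction of the estimate they reached 1.25 to 1.67 in size on the log2 scale for 5 markers, and 0.54 for Zbtb46.

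Zbtb46 was the most abundant of the markers. Compared per length (CPM per kilobase of exon, SD over 12 libraries), it stood at 3.33 ± 0.597. Irf8 at 1.35 ± 0.843, Ccr7 at 1.24 ± 0.855 and Itgax at 1.09 ± 0.63 followed. Cd209a came next at 0.646 ± 0.421. Batf3 (0.227 ± 0.154), Flt3 (0.199 ± 0.166), Siglech (0.172 ± 0.159) and Clec9a (0.135 ± 0.103) came after it, and Xcr1 was lowest at 0.0452 ± 0.0706. Among neighbours in this order, only Zbtb46 and Irf8 differed by more than the larger of their SDs. Markers further apart did differ by more, such as Irf8 and Xcr1. In whole tissue, fewer cells of a type and less RNA per cell cannot be told apart.

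RefSeq promoters of GRCm38.p6 (250 bases before to 50 after a gene's start) matched 9 of the 10 markers, with a pair of starts for Irf8. These 3 are printed because their genes behaved differently across the libraries: Irf8 and Itgax varied with the leukocyte gene Ptprc, and Zbtb46 had no such slope past the test. Capitals mark the AP-1 heptamer, TGACTCA or its reverse complement TGAGTCA, a site of the family to which BATF3 belongs. The Irf8 start is the upstream one, the Zbtb46 start lies inside the annotated gene, and all are written 5′ to 3′ on the gene's strand.
Irf8 (chr8:120736108-120736407, plus strand): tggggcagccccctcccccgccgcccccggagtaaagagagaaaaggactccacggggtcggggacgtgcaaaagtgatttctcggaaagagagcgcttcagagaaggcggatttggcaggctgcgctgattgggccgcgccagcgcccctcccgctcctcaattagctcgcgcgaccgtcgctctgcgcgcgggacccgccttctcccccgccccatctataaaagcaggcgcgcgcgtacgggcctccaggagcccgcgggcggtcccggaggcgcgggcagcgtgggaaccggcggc
Itgax (chr7:128129300-128129599, plus strand): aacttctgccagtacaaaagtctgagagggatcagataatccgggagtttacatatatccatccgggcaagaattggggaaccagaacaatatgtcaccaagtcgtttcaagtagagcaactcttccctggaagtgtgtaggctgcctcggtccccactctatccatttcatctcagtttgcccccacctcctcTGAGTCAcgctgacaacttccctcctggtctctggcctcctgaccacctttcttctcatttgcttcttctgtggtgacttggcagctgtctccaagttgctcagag
Zbtb46 (chr2:181424339-181424638, minus strand): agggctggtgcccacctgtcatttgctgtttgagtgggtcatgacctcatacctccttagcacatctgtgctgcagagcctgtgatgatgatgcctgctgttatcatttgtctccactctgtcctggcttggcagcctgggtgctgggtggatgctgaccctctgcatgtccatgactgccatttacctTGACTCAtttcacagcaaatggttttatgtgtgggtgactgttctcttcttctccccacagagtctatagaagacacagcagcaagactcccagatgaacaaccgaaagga
The heptamer was found in 2 of the 10 promoters, those of Itgax and Zbtb46, and in 5.2% of the 32851 promoters in the table. The core of the interferon-stimulated response element, searched as GAAANNGAAA on both strands, was in 0 of the 10 and in 3.44% of all. The printed Irf8 promoter was 70% G and C, and those of Itgax and Zbtb46 were 50% and 50.7%. A match describes letters and not a bound site.

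Flt3 encodes the receptor through which FLT3 ligand drives dendritic cell development, and lies on chromosome 5 (147330741 to 147400489, minus strand, GRCm38). It was at 0.408, 1.05 and 2.54 CPM (lowest, median, highest) in WT and at 0.085, 0.963 and 3.70 CPM in AMKO. AMKO 1 was highest, WT 4 next and AMKO 3 lowest, so the AMKO libraries spanned the whole WT range. The log2 fold change, AMKO minus WT, was 0.17 (SE 0.61, 95% interval -1.13 to 1.48, adjusted p = 0.899 in edgeR). AMKO 1 alone held 60 of the 109 AMKO counts, and without it the value was -0.51. The gene overlaps Gm26597 in the annotation. Its ligand gene Flt3l was steady, at 4.64 ± 0.482 CPM in WT and 4.80 ± 0.896 CPM in AMKO, a log2 difference of 0.05 (SE 0.15, adjusted p = 0.873 in edgeR).

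Zbtb46 encodes a zinc finger transcription factor of committed conventional dendritic cells, on chromosome 2 (181387762 to 181459426, minus strand). It was at 19.7, 26.2 and 30.7 CPM in WT and at 22.4, 32.6 and 35.0 CPM in AMKO. The groups overlapped: 4 of 6 AMKO libraries were above the highest WT library, whereas AMKO 5 was second lowest of all 12. The log2 fold change was 0.27 (SE 0.13, 95% interval -0.01 to 0.54, adjusted p = 0.241 in edgeR). Zbtb46 was the most even marker, with 1.78-fold between its highest and lowest library. Of 3 endothelial genes chosen for comparison after their values were seen, Pecam1 spanned 1.59-fold and Cdh5 1.99-fold. The third, Kdr, spanned 3.15-fold and was lower in AMKO (log2 -0.83, adjusted p = 0.00752 in edgeR). Such evenness was not particular to endothelial genes. Over the 12 libraries Stat3 ran from 91.5 to 119.9 CPM and the acinar gene Cela1 from 29365 to 47669 CPM. Whether endothelium supplied the Zbtb46 counts was not tested.

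Itgax, the gene of the integrin CD11c on chromosome 7 (128129547 to 128150657, plus strand), marks dendritic cells and some macrophages. It was at 1.79, 4.10 and 8.80 CPM in WT and at 2.27, 5.29 and 12.7 CPM in AMKO. AMKO 1 and WT 2 were the highest and WT 3 and AMKO 6 the lowest, so both genotypes covered most of the range. The log2 fold change was 0.41 (SE 0.39, 95% interval -0.43 to 1.25, adjusted p = 0.578 in edgeR), and 0.05 without AMKO 1.

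**Figure D1:**
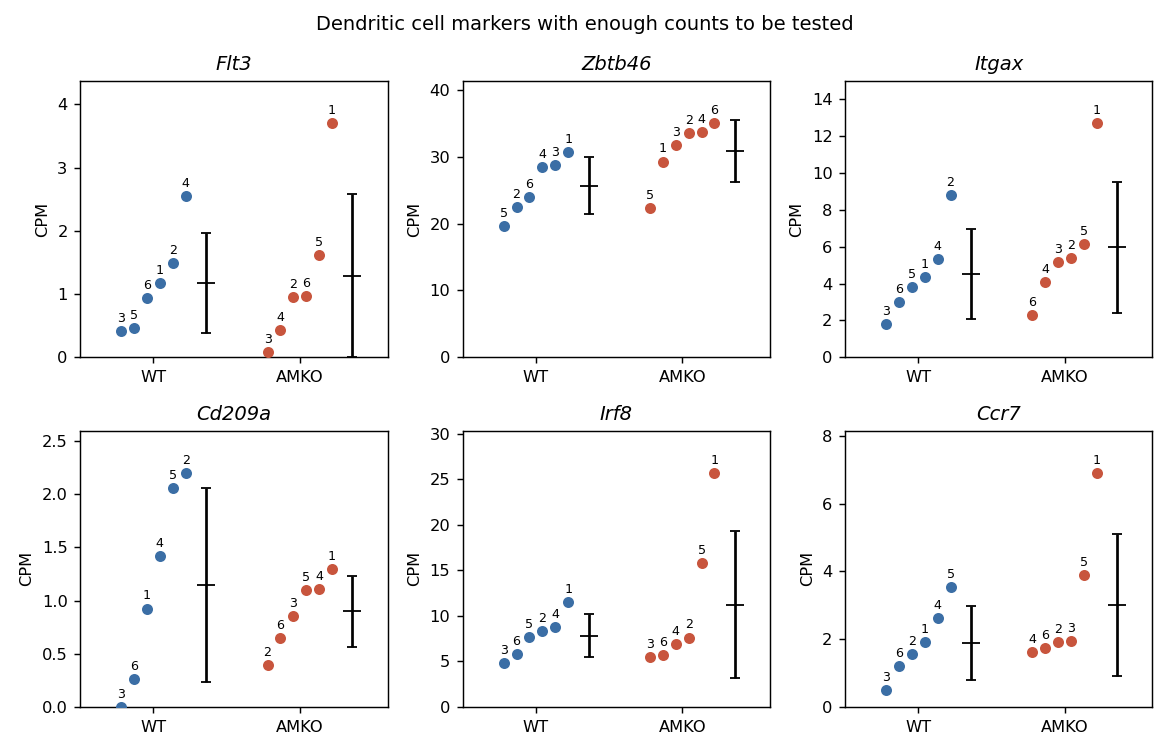
CPM of the 6 tested dendritic cell markers in each library. Points are libraries in ascending order within a genotype (blue WT, red AMKO), numbers are replicate numbers, and bars give mean ± SD (n = 6). AMKO 1 is the highest library for Flt3, Itgax, Irf8 and Ccr7, and the genotypes overlap for all 6.

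Of the 4 markers tied to cDC1, Xcr1, Clec9a and Batf3 fell below the count filter. Irf8, the transcription factor that specifies cDC1 and plasmacytoid cells and is also used by monocytes and B cells, was the only one tested (chromosome 8, 120736358 to 120756694, plus strand, overlapping Gm20388). It was at 4.81, 8.02 and 11.5 CPM in WT and at 5.44, 7.29 and 25.7 CPM in AMKO. AMKO 1 and AMKO 5 stood above all WT libraries and the other 4 AMKO libraries lay inside the WT range. The log2 fold change was 0.53 (SE 0.37, 95% interval -0.26 to 1.32, adjusted p = 0.431 in edgeR), 0.10 without AMKO 1 and -0.26 without AMKO 1 and AMKO 5.

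Xcr1 encodes the chemokine receptor by which cDC1 follow XCL1 (chromosome 9, 123852315 to 123862029, minus strand). Its counts were 0, 2, 1, 0, 4 and 3 in WT 1 to 6 and 18, 0, 0, 0, 4 and 2 in AMKO 1 to 6. It had no counts in 5 of the 12 libraries, where 3 counts, the limit that a 0 allows, correspond to between 0.185 and 0.255 CPM. AMKO 1 carried 52.9% of all its counts, and its ligand Xcl1 had 7 counts in all libraries together.

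Clec9a encodes DNGR-1, the cDC1 receptor for actin filaments exposed by dead cells (chromosome 6, 129408862 to 129424763, plus strand). Its counts were 8, 10, 5, 13, 3 and 13 in WT and 10, 2, 0, 1, 10 and 0 in AMKO. It was the only one of the 4 sparse markers with lower counts in AMKO, 23 against 52, and AMKO 1 and AMKO 5 held 20 of the 23. The other 4 AMKO libraries, with 3 counts together, were all below the lowest WT library (0.28 CPM). Fitted without the count filter, over 26207 genes of which 2.33% were called, the log2 fold change was -1.11 (SE 0.66, 95% interval -2.48 to 0.27, adjusted p = 0.440 in edgeR). Without AMKO 1 and AMKO 5, a choice made for this gene after its values were seen, the value was -3.08. That figure follows from where the counts lay and is a description only (7.09% of 25530 genes were called in that fit). These are small counts, and Clec9a shares exon bases with Clec1b, so its counts are uncertain where reads fell on both genes.

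Batf3, a transcription factor that sustains cDC1 (chromosome 1, 191097847 to 191108945, plus strand), had 26 counts in WT and 32 in AMKO. Single libraries ranged from 0 in WT 1 to 13 in AMKO 1, and its genotypes overlapped throughout. Fitted in edgeR without the count filter, Xcr1 differed by 1.12 on the log2 scale (SE 0.98, adjusted p = 0.543) and Batf3 by 0.33 (SE 0.63, adjusted p = 0.821). Both were below 0 without AMKO 1, at -0.30 and -0.018.

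Cd209a encodes a DC-SIGN homologue found on cDC2 and monocyte-derived dendritic cells (chromosome 8, 3743397 to 3748984, minus strand). It was at 0, 1.17 and 2.20 CPM in WT and at 0.397, 0.975 and 1.30 CPM in AMKO. All AMKO libraries lay within the WT range, which ran from no counts in WT 3 to 31 in WT 2. Among the 6 tested markers it alone had a fold change below 0, of -0.31 (log2, SE 0.59, 95% interval -1.59 to 0.96, adjusted p = 0.799 in edgeR). Without WT 2 that value was 0.0079.

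Siglech, a sialic acid-binding lectin of plasmacytoid dendritic cells (chromosome 7, 55768178 to 55778925, plus strand), had counts of 2, 8, 8, 5, 2 and 6 in WT and 34, 9, 0, 9, 9 and 4 in AMKO. AMKO 1 stood far above the rest with 35.4% of all counts, and after scaling AMKO 1, 2, 4 and 5 were above the highest WT library, while AMKO 3 had no counts. The log2 fold change without the count filter was 1.05 (SE 0.61, 95% interval -0.24 to 2.34, adjusted p = 0.440 in edgeR), and 0.43 without AMKO 1.

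**Figure D2:**
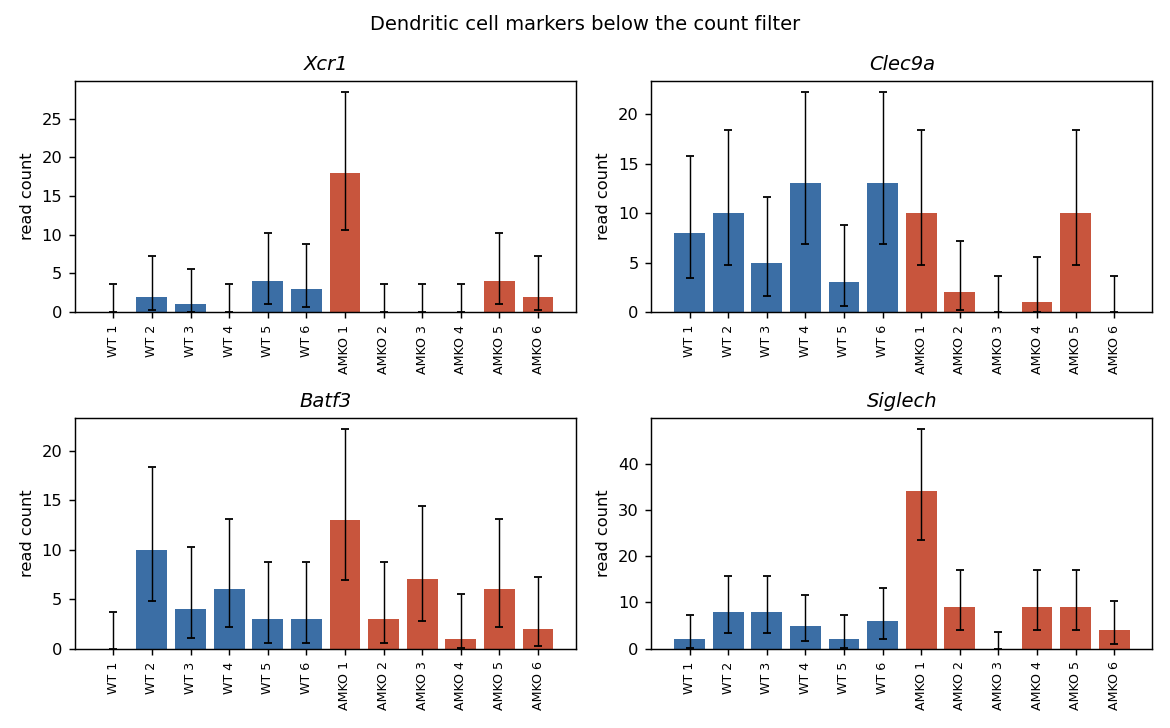
Read counts of the 4 markers below the count filter in each library (blue WT, red AMKO). Lines are exact 95% Poisson intervals and cover counting error only. AMKO 1 leads Xcr1 with 18 counts and Siglech with 34, whereas Clec9a is at 0 to 2 counts in AMKO 2, 3, 4 and 6.

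Ccr7 encodes the chemokine receptor that leads mature dendritic cells, naive T cells and B cells toward CCL19 and CCL21 (chromosome 11, 99144196 to 99155077, minus strand). It was at 0.489, 1.74 and 3.55 CPM in WT and at 1.61, 1.93 and 6.91 CPM in AMKO. AMKO 1 and AMKO 5 were the highest libraries and WT 3 the lowest, with the other 4 AMKO libraries inside the WT range. The log2 fold change was 0.70 (SE 0.45, 95% interval -0.27 to 1.67, adjusted p = 0.393 in edgeR), and 0.27 without AMKO 1. Of its ligand genes, Ccl19 had 1 count over all libraries and Ccl21a none. The counting rule is not stated, and near-identical copies were searched for the markers only. These counts therefore do not show that the ligands were absent.

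**Figure D3:**
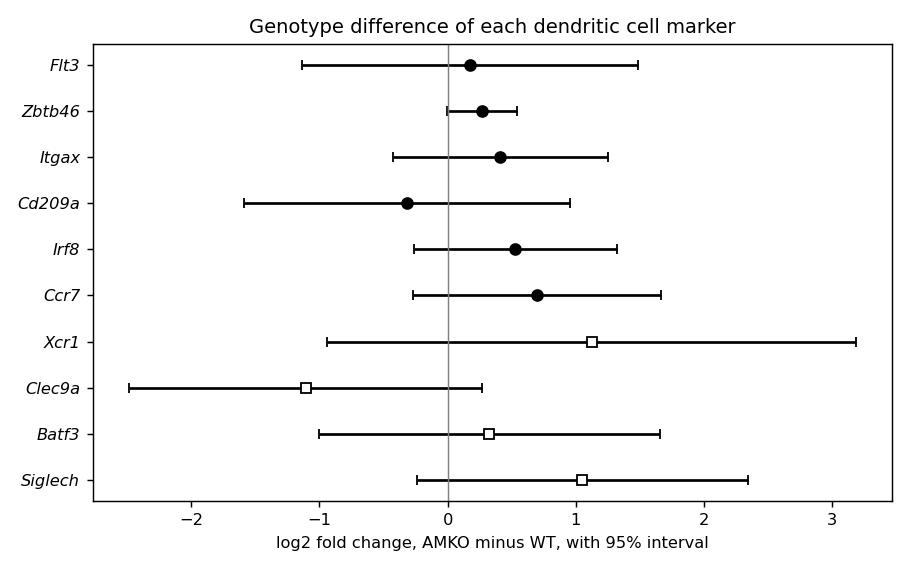
Log2 fold change of each marker, AMKO minus WT, with its 95% interval. Filled circles are the 6 tested markers, and open squares are the 4 sparse ones fitted without the count filter. All 10 intervals include 0, and Zbtb46 has the narrowest, from -0.01 to 0.54.

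As an average, the markers differed less between the genotypes than between libraries of one genotype. AMKO 1 was the highest library for 7 of the 10. The exceptions were Clec9a (WT 4), Zbtb46 (AMKO 6) and Cd209a (WT 2). Averaged over the 10 markers as log2 CPM centred on all libraries, AMKO 1 stood at 1.30, AMKO 5 at 0.53 and WT 2 at 0.42, and WT 3 (-0.70) and AMKO 3 (-0.62) were lowest. The genotype means of this average were -0.066 ± 0.411 in WT and 0.066 ± 0.718 in AMKO (SD, n = 6 each). The genotypes thus differed by 0.13, well within either spread. Without AMKO 1 the difference was -0.10.

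Several markers rose with total leukocyte RNA. The log2 level of Ptprc was added to the genotype model. Of the 6 tested markers, 4 had a positive slope that passed the test, where 9.59% of all genes did. This was not particular to dendritic cell markers. Such slopes passed for 8 of 10 macrophage, 6 of 6 monocyte, 6 of 6 neutrophil and 6 of 6 B cell genes. They passed for 2 of 4 plasma cell and 0 of 6 acinar genes. Values for the markers follow. The slope was 0.60 log2 units per log2 unit of Ptprc for Irf8 (SE 0.07, adjusted p = 1.9e-05 in edgeR), 0.66 for Ccr7 (SE 0.13, adjusted p = 0.00194), 0.54 for Itgax (SE 0.12, adjusted p = 0.00603) and 0.80 for Flt3 (SE 0.21, adjusted p = 0.0189). Cd209a had a slope of 0.63 (SE 0.25, adjusted p = 0.121) and Zbtb46 one of -0.08 (SE 0.06, adjusted p = 0.372). Only the Irf8 slope passed both without the 4 libraries poorest in Ptprc and without AMKO 1 and AMKO 5, each of which left 1 of the 4 calls. Leaving out AMKO 1 alone ended the calls of Flt3 (adjusted p = 0.203) and Itgax (adjusted p = 0.0993), and leaving out AMKO 3 ended that of Flt3 (adjusted p = 0.0571).

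**Figure D4:**
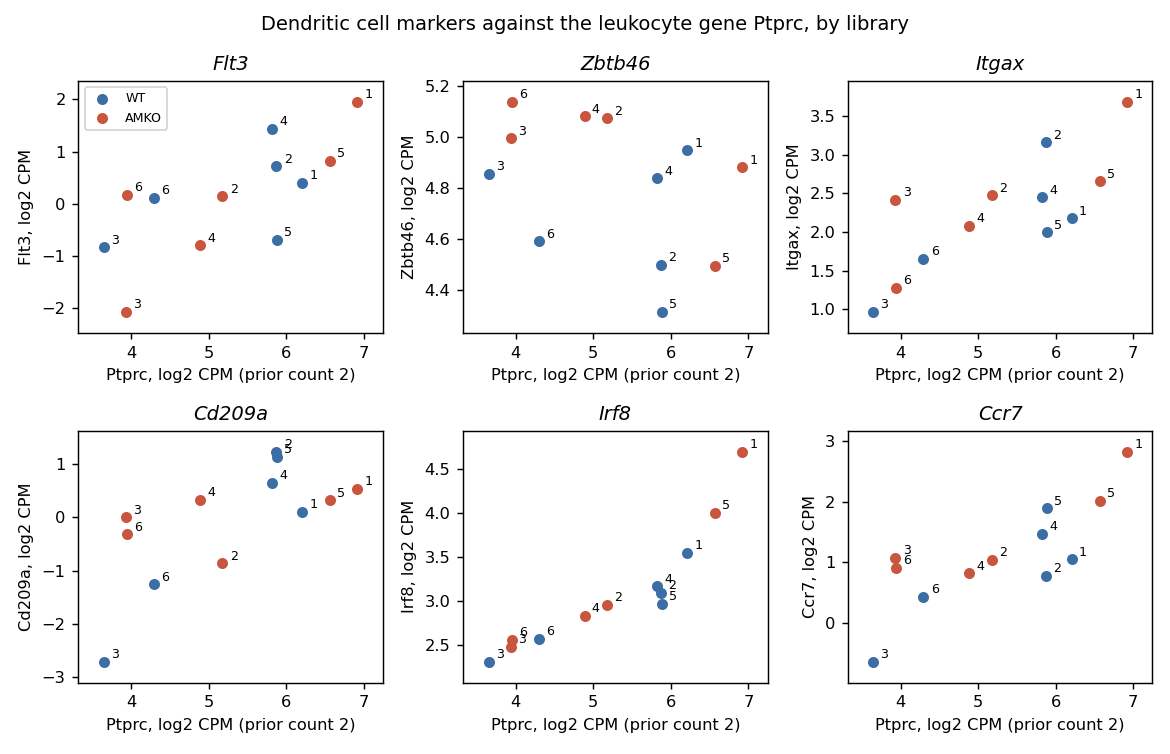
Log2 CPM of each tested marker against that of Ptprc (prior count of 2) in the 12 libraries, blue WT and red AMKO, numbered by replicate. Irf8 climbs with Ptprc across both genotypes (slope 0.60), whereas Zbtb46 does not (slope -0.08).

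The ends of the Ptprc range give these relations as levels. Irf8 ran from 4.81 to 5.78 CPM in the 4 libraries with least Ptprc (WT 3, AMKO 3, AMKO 6 and WT 6) and from 7.66 to 25.7 CPM in the 4 with most (WT 5, WT 1, AMKO 5 and AMKO 1). Ccr7 ran from 0.489 to 1.96 CPM and from 1.91 to 6.91 CPM, a slight overlap. Itgax (1.79 to 5.19 against 3.83 to 12.7 CPM) and Flt3 (0.085 to 0.974 against 0.467 to 3.70 CPM) overlapped more. Cd209a, whose slope missed the test, did not overlap, at 0 to 0.850 against 0.925 to 2.06 CPM. Its counts were few, with 20 in the first 4 libraries and 73 in the second. Zbtb46 did not follow, with 23.9 to 35.0 CPM in the first 4 and 19.7 to 30.7 CPM in the second.

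The leading libraries also carried the most macrophage, monocyte and B cell RNA. The macrophage list summed to 1328 CPM in AMKO 1 and 1529 CPM in AMKO 5, against at most 875 CPM elsewhere. For the monocyte list these sums were 608 and 732 CPM, against at most 605 CPM. The neutrophil list was highest in WT 1, at 649 CPM against 253 and 398 CPM. The 8 B cell markers summed to 216 CPM in AMKO 1 and 65.2 CPM in AMKO 5, against 1.14 to 28.6 CPM in the other 10 libraries. T cell markers reached 17.3 CPM in AMKO 1 and at most 6.23 CPM elsewhere, with Trac at 0 throughout. Of the lymph node stroma and vessel list, the B cell chemokine gene Cxcl13 was at 449.6 CPM in AMKO 1 and 322.9 CPM in AMKO 5 against at most 156.7 CPM elsewhere. The list's other 5 genes were near 0, with 26 counts of Madcam1, 23 of Glycam1, 19 of Chst4, 1 of Ccl19 and 0 of Ccl21a over all libraries. Since the counting rule is not stated, such counts, and those of Trac, do not show that a transcript was absent. Whether any library held lymph node tissue was not tested. With the B cell gene Cd79a in place of Ptprc, positive slopes passed for the same 4 markers, where 7.03% of all genes did, at 0.31 for Irf8, 0.37 for Ccr7, 0.42 for Flt3 and 0.26 for Itgax (largest adjusted p = 0.0445, edgeR). Without AMKO 1 and AMKO 5, 0 of these slopes passed (smallest adjusted p = 0.356). The calls of Irf8 and Ccr7 held when any 1 library was left out, whereas those of Flt3 and Itgax both ended without WT 3, AMKO 1, AMKO 2, AMKO 3 or AMKO 4, that of Flt3 also without AMKO 5, and that of Itgax also without WT 4 or AMKO 6. With AMKO 1 and AMKO 5 left out, the fold changes of Flt3, Itgax, Irf8 and Ccr7 were -0.95, -0.069, -0.26 and -0.034, none past the test. Zbtb46 was then called higher at 0.40 (SE 0.12, adjusted p = 0.0387), in a fit that called 15.1% of 13964 genes. Over all 12 libraries the macrophage gene Adgre1 also had a positive slope on Cd79a, of 0.39 (adjusted p = 0.00183 in edgeR). The part of B cells or macrophages in the marker values was not tested.

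For each marker above 2 CPM, the genes most like it over the 12 libraries were found by the root mean square difference of standardised log2 CPM. For Irf8 these were A630001G21Rik (0.202 SD units), Rasgrp1 (0.239) and Clec2i (0.24). For Ccr7 they were Cd74, which encodes the invariant chain of MHC class II (0.323), Apoe (0.332) and Klf2 (0.347). Itgax was nearest to Evl (0.301), Mmp14 (0.322) and Pdlim4 (0.352). Zbtb46 was nearest to Ctdp1 (0.252), Csnk2a2 (0.253) and Tnpo2 (0.288).

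Around the markers, 8 wider lists of dendritic cell genes held 94 genes, of which 58 were tested and 5 were called, 8.62% against the 5.78% of all genes. Tlr3, a receptor for double-stranded RNA that cDC1 use but other cells share, fell from 28.8 ± 5.17 to 15.6 ± 2.70 CPM, with no overlap between the genotypes (log2 fold change -0.89, SE 0.14, adjusted p = 0.00291 in edgeR). Cadm1, an adhesion molecule of cDC1 and epithelia, fell by 0.66 (SE 0.13, adjusted p = 0.0116) and Bst2, an interferon-induced gene also used as a plasmacytoid marker, by 0.86 (SE 0.20, adjusted p = 0.0253). Nfil3, a factor needed for cDC1 development, rose by 0.84 (SE 0.20, adjusted p = 0.0261), and Klf4, a factor of a cDC2 subset, by 0.49 (SE 0.13, adjusted p = 0.0428). None of these 5 had a slope on Ptprc past the test (-0.09 to 0.09), whereas 34 of the 58 had a positive one. None of the 34 was called by genotype in the fit without Ptprc, where the share was 1.37% of all genes with such a slope. That fit counts variation with Ptprc as error, so it is less able to call such genes. With Ptprc in the model, Cd74, Sirpa, Cd274 and Irf7 of the 34 were called, in a fit that called 1520 of 13743 genes. Tlr3 kept its call in all 26 alternatives and Cadm1 in 23. Nfil3 missed the threshold without WT 2, 5 or 6 or AMKO 2, Bst2 without WT 3 or 4 or AMKO 2, 3, 4 or 6, and Klf4 without any 1 of 9 libraries (largest adjusted p = 0.1, without AMKO 2). Their cell of origin in this tissue was not tested.

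By list, cDC1 genes had 1 called higher and 2 lower of 11 tested, with a median of -0.127. cDC2 genes had 1 higher of 9 (median 0.48) and plasmacytoid genes 1 lower of 9 (median 0.04). Of 14 tested genes of mature and migrating dendritic cells 0 were called, with a median of 0.000374, and the most abundant, Tmem123 and Birc3, were at 0.00 and -0.20 on the log2 scale. Among 11 growth factor and receptor genes 0 were called, with Stat3 at -0.02 and Kitl at -0.40. Of the MHC class II list 3 of 11 genes were tested and 0 called, among them Cd74 at 0.88 (SE 0.45, adjusted p = 0.269) and Ctss at 0.16. In the CD209 family the 1 tested gene, Cd209f, was at -0.02. Among the lists of other cells, the macrophage gene Mrc1 was higher in AMKO by 0.81 (adjusted p = 0.0211 in edgeR, 0.0524 without WT 4). Of the plasma cell list, Sdc1 was lower, at -0.49 (adjusted p = 0.025, and 0.0508 to 0.0574 without WT 4, AMKO 2 or AMKO 3). Jchain and Mzb1 of that list were at 0.18 and 0.93 and Xbp1 at -0.04, none of them called. Sdc1 had a mean of 325 CPM, against 13.8 for Jchain and 1.84 for Mzb1, and its cell of origin was not tested.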

How the data were processed

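RNA was sequenced from 12 pancreas libraries, grouped by the genotype in the labels. Per the labels' protocols, total RNA was extracted with Trizol and libraries followed Illumina's standard steps. The submitters' processing notes name HISAT2 2.0.4 and mm10. The sources used here give no read counter, annotation or strand setting. The authors deposited raw counts for each gene. No pair of libraries of one genotype agreed within sampling noise (chi-square over degrees of freedom 9.75 to 74.2).

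AMKO was compared with WT with edgeR 4.0.16 under R 4.3.3, using its quasi-likelihood F test after TMM scaling and filterByExpr, with Benjamini-Hochberg adjustment over all genes tested. A gene was called at an adjusted p under 0.05. CPM are TMM-scaled, and log2 CPM have a prior count of 2. Intervals are at 95%, and floors are 3 counts. Sparse markers were fitted without the count filter, over all genes with a count. DESeq2 1.42.0, limma 3.58.1 voom with a quality weight for each library, other scalings and filters, left-out libraries and leukocyte covariates were alternatives. The slopes on Ptprc and Cd79a and the unfiltered fits with libraries left out were chosen after seeing the data. Fits were also run on counts simulated gene by gene from the fitted dispersions. The simulated genotype comparison held no leukocyte differences shared by genes, so it does not check the fit under them. Positions are from GENCODE vM21, and BLAST 2.17.0 found no copy of a marker at 95% identity over 300 bp.

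The markers and lists were chosen with earlier results of these data known, so no p over a list is given. Named genes were the 10 markers, the ligands, Axl, called list genes or otherwise the 2 most abundant of a list, and the 3 genes nearest each marker above 2 CPM. Mertk, Pecam1, Cdh5 and Kdr were added after their values were seen. Some other genes, among them Alb, Adgre1, Ciita, Trac, Jchain and Mzb1, are also named outside this rule.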

Additional observations from a re-analysis of the deposited data

How the results depend on the processing

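Of the markers tested (6, but 10 with no count filter and 5 at 1 CPM in 6 libraries), 0 were called by genotype in 25 of 26 alternatives and 1 (Zbtb46) without AMKO 1 and AMKO 5. Fitted there without the filter, a combination chosen after seeing the data, Clec9a was at -3.08 (adjusted p = 0.017 in edgeR). That fit called 7.09% of 25530 genes, and Clec9a had 3 counts in the 4 AMKO libraries that remained. The libraries left out held 20 of its 23 AMKO counts, so this value is a description only and not a test. The genes called in all, 794 in the reported fit, numbered 456 with total-count scaling, 1302 in DESeq2, 1664 in limma voom, 167 with WT 4 to 6 only, 231 with WT 1 to 3 only, 98 without the 4 leukocyte-poor libraries, 2115 without AMKO 1 and AMKO 5, 1520 with Ptprc and 1480 with Cd79a as a covariate. With 1 library left out they numbered 411 to 1140. The called genes of the wider lists, 5 as reported, numbered 11, 9, 1, 2, 1, 13, 14 and 12 in DESeq2, voom, WT 4 to 6, WT 1 to 3, without the 4 leukocyte-poor libraries, without AMKO 1 and AMKO 5, and with Ptprc or Cd79a, and 2 to 8 with 1 library left out. The count of positive Ptprc slopes was 1 without the 4 leukocyte-poor libraries, 1 without AMKO 1 and AMKO 5, and 2 to 4 with 1 left out. That of Cd79a slopes was 2, 0 and 2 to 4. The wider-list counts are to be read beside the share of all genes called. It was 5.78% as reported, 9.67% in DESeq2, 12.1% in voom and 15.1% without AMKO 1 and AMKO 5. With WT 4 to 6 it was 167 of 14219 genes, and with WT 1 to 3 231 of 14279. Without the 4 leukocyte-poor libraries it was 98 of 13908, and with Ptprc or Cd79a 1520 or 1480 of 13743. Tlr3 was called in all 26, and Klf4 lost its call in 14.

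Fold changes reversed for Flt3 in voom with library weights (-0.75), with Ptprc (-0.10) or Cd79a (-0.36), without AMKO 1 (-0.51) and without AMKO 1 and AMKO 5 (-0.95). They also reversed for Cd209a in voom (0.21) and without WT 2 (0.0079). With 1 library left out Flt3 ran from -0.51 to 0.54, Cd209a from -0.57 to 0.0079, Xcr1 from -0.30 to 1.65 and Batf3 from -0.018 to 0.71. Without AMKO 1 and AMKO 5 they reversed for Itgax (-0.069), Irf8 (-0.26), Ccr7 (-0.034), Xcr1 (-1.28) and Batf3 (-0.17). Xcr1 reversed with Cd79a (-0.023) and without AMKO 1 (-0.30), as did Batf3 without AMKO 1 (-0.018). The causes were not tested. The list mean ran from -0.10 to 0.27 with 1 library left out.

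With the replicate number as a replicate block, 910 genes and 0 markers were called, and Flt3 reversed to -0.030. The libraries share only a number: same-number correlations ran from -0.16 to 0.346, and 3 of 12 libraries correlated best with their own number. Depth limits Xcr1, Clec9a, Batf3 and Siglech, which had at most 34 counts in a library.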

Other observations

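Genes of the H2 region on chromosome 17 were nearly empty in this count table. Between H2-K1 and H2-D1 (33996017 to 35267499, GRCm38), 72 of 81 protein-coding genes (88.9%) had under 60 counts over the 12 libraries, with a median of 4. On the rest of chromosome 17 the share was 39.6% with a median of 384, and on the other chromosomes 35.8% with a median of 535. The 8 H2 genes of the MHC class II list summed to 143 counts over all libraries, whereas Cd74, which encodes the chain that escorts class II molecules, had 11387 and Ciita, the class II transactivator, 590. Antigen presentation by dendritic cells therefore cannot be read from the H2 genes of this table.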
